A study of Mus musculus with 8 samples.

Results

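Ncr1 (ENSMUSG00000062524) encodes NKp46, an activating receptor on the surface of natural killer (NK) cells. It is 1 of the 33696 genes counted in each library and was taken by its symbol. It was chosen by its name in the knockout allele and by its measured UMI counts in NK cells, which were already known to be lower in the knockout libraries. That difference is therefore described here without a test, as are its levels by cell type.

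NKp46 has no signalling part of its own. It pairs in the membrane with the chains encoded by Cd247 and Fcer1g, whose phosphorylated tails recruit the kinases Syk and Zap70. In the mouse it marks NK cells and group 1 innate lymphoid cells resident in tissue (ILC1), and is found on some other innate lymphoid cells and on few T cells, for which reason Ncr1 is widely used to drive Cre in NK cells.

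Single cells were read from livers with hepatocellular carcinoma of male C57BL/6 mice that carried Nr4a1 fl/fl alleles in both groups. Control mice were Ncr1WT and had no Cre, and knockout mice carried Ncr1iCre. Nr4a1 encodes Nur77, a nuclear receptor that is switched on when lymphocytes are stimulated. All mice, 8 to 10 weeks old, had plasmids pushed into the tail vein in a large volume (hydrodynamic injection): Cas9 vectors with an sgRNA to Trp53, a c-Myc transposon and the transposase SB13, and livers were taken 4 to 5 weeks later. Each group has 3 libraries, called control 1 to 3 and knockout 1 to 3. Control 3 pools 3 mice and knockout 3 pools 2 mice, told apart by hashtag antibodies, and the labels do not give the animals behind the libraries numbered 1 and 2. They also do not say how Cre is joined to Ncr1, nor which part of Nr4a1 is floxed. Cre itself was not analysed here.

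The DNA around the start of Ncr1 is shown because Runx factors, whose genes Runx1, Runx3 and Cbfb were measured below, are known to act on this gene. RefSeq's table for GRCm38.p6, a build other than that of the count files, has 2 windows for Ncr1, and the one with the lower start is printed. It runs on the plus strand at chr7:4337465-4337764, from 250 bases before the start site it is built on to 50 after it. Capitals mark matches to the Runx core TGTGGT on either strand.
Ncr1 promoter: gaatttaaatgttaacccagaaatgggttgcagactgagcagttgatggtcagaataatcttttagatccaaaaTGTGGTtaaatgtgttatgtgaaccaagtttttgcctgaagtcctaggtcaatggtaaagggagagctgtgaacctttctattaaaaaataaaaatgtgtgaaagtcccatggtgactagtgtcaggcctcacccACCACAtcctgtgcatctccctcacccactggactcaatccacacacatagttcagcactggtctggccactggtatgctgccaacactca
The core was found 2 times, as TGTGGT with its first base 176 bases before the start and as ACCACA 41 bases before it. At least 1 match on either strand was held by 16.8% of the 32851 promoter windows of this length, and 2 or more by 1.81%. The T-box core AGGTGT, also searched on both strands, had no match in these letters and was in 13.7% of windows. A match is a run of letters and was not tested as a site.

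The 6 libraries gave 20087 cells after filters, 134 to 9180 each, with a median of 1924.5 to 3867 UMIs (unique molecular identifiers, counted molecules) per cell. Knockout 2 was the poorest library, with 134 cells and a median mitochondrial share of 75.1% over barcodes of at least 500 UMIs. That share was 27.9% in control 2 and 6.7% to 10.0% in the others. Any 2 libraries shared at most 14 cell barcodes. Cell types were called from UMIs of marker genes, and Ncr1 was in no marker list. NK cells and ILC1 had to show at least 4 of 10 markers common to both and no UMI of Cd3d, Cd3e, Cd3g or Trac. NK cells then had to show at least 3 of 14 NK markers, such as Eomes and Klra8, and more of these than of 8 ILC1 markers, such as Cxcr6 and Itga1. NK cells numbered 179, 95 and 324 in controls 1, 2 and 3, against 56, 18 and 101 in knockouts 1, 2 and 3. Hepatocytes, the main cells of the liver, numbered 1957 in the 5 libraries with at least 10 of them.

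Nr4a1 (ENSMUSG00000023034), the gene the study deletes, was counted in NK cells at 75.6, 31.3 and 49.9 CPM (the gene's part of all UMIs of those cells, scaled to the same total in each library) in controls 1, 2 and 3, against 181, 0 and 84.2 CPM in knockouts 1, 2 and 3. Its CPM was thus higher in knockouts 1 and 3 than in any control, though knockout 3 was close to control 1. The 2 mice of knockout 3 also differed. Mouse 1 held 16 Nr4a1 UMIs among 391432 UMIs of 63 NK cells, and mouse 2 held 25 among 106728 UMIs of 26. The log2 fold change of Nr4a1 was 1.00 (SE 0.49) and did not pass edgeR's quasi-likelihood test (adjusted p = 1), and without knockout 1 it was 0.22. Reads of this assay come from the 3′ end of a transcript and the floxed part is not given, so these UMIs do not check the deletion. NK cells that held UMIs of both Ncr1 and Nr4a1 numbered 22, 8 and 51 in controls and 8, 0 and 13 in knockouts.

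In NK cells Ncr1 was lower in every knockout library than in any control library. NK cells of controls 1, 2 and 3 held 759, 282 and 1395 Ncr1 UMIs, which are 832, 736 and 657 CPM. Those of knockouts 1, 2 and 3 held 86, 54 and 181 Ncr1 UMIs, which are 183, 563 and 339 CPM. The control libraries lay close together at 742 ± 87.4 CPM (SD, n = 3) and the knockout libraries far apart at 362 ± 191 CPM (SD, n = 3). Knockout 2 lay nearest to the controls and knockout 1 furthest from them.

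Of the 6297 genes tested in NK cells, 4.32% had all 3 knockout libraries below all 3 control libraries. Since this contrast chose Ncr1, nothing is read from its place among them. The fitted log2 fold change of Ncr1 was -1.13 (SE 0.31), and -1.21 (SE 0.25) with the replicate number as a block. Taken number by number, Ncr1 was 4.54-fold lower in knockout 1 than in control 1, with a 95% interval of 3.63 to 5.74. Knockout 3 was 1.94-fold lower than control 3, with an interval of 1.66 to 2.28. Knockout 2 was 1.31-fold lower than control 2, and its interval of 0.975 to 1.79 includes no difference. These intervals, like all others given on counts here, are exact and cover counting error only. Without knockout 1 the log2 fold change was -0.79.

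Depth, quality and free RNA of the NK cells also differed between libraries, and their part in the Ncr1 levels was not tested. Their median depth was 3542, 3603 and 4827.5 UMIs in controls 1, 2 and 3, against 6561, 3650 and 4029 in knockouts 1, 2 and 3. The library with the least Ncr1 had the deepest cells. Their median mitochondrial share was 2.10%, 6.08% and 2.93% in controls and 1.45%, 9.72% and 1.76% in knockouts. Summed over 10 hepatocyte genes, which reach NK cells as free RNA, the level was 199, 94.0 and 608 CPM in controls and 51.2, 125 and 453 CPM in knockouts. Of 6 T cell receptor complex genes, Cd3d, Cd3e, Cd3g and Trac were at 0 in all NK cells by the way the cells were called. With Trbc1 and Trbc2 the list summed to 549.9, 538 and 643 CPM in controls and to 529, 615 and 721 CPM in knockouts.

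Both the share of NK cells with Ncr1 and the number of UMIs in each were lower in knockouts 1 and 3. An Ncr1 UMI was seen in 88.3%, 83.2% and 89.2% of NK cells in controls 1, 2 and 3 and in 58.9%, 77.8% and 59.4% in knockouts 1, 2 and 3. At an equal depth of 1000 UMIs per cell, computed exactly from each cell's counts, the expected shares were 56.9%, 51.9% and 47.7% in controls and 17.3%, 41.8% and 26.1% in knockouts. Cells below that depth, 2, 2 and 0 in controls and 0, 0 and 1 in knockouts, were left out. The groups did not overlap on either measure, for which no share over all genes was computed. Both measures come from the counts that chose Ncr1, so nothing is read from this. NK cells with at least 1 Ncr1 UMI held 4.80, 3.57 and 4.83 of them on average in controls and 2.61, 3.86 and 3.02 in knockouts, where knockout 2 lay above control 2.

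**Figure D1:**
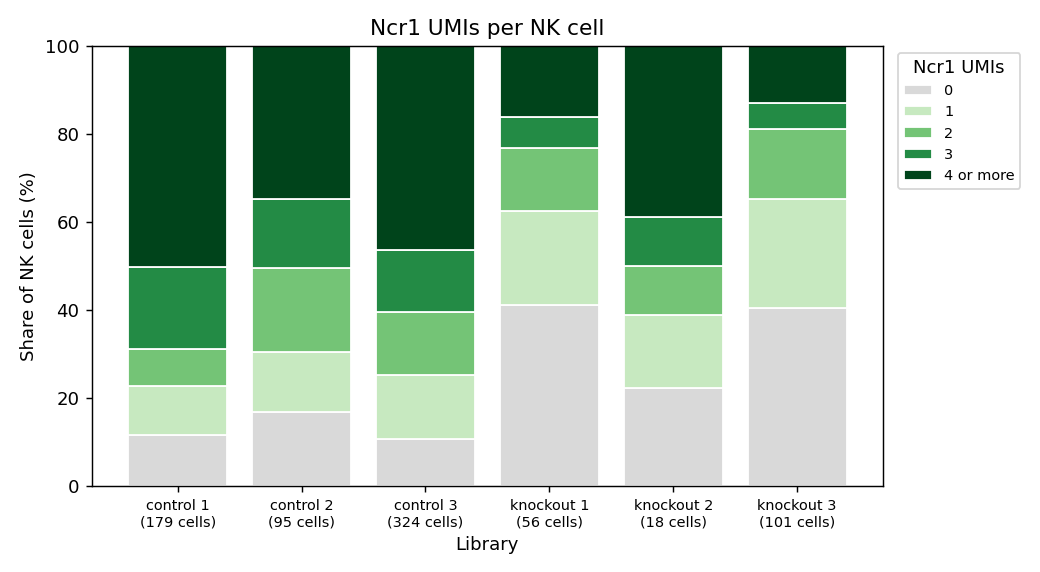
Share of NK cells (vertical axis, %) with 0, 1, 2, 3 or at least 4 Ncr1 UMIs in each library, unthinned, with the number of NK cells under each bar. Cells without a UMI made up 10.8% to 16.8% of NK cells in the 3 control libraries and 41.1%, 22.2% and 40.6% in knockouts 1, 2 and 3.

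NK cells with at least 4 Ncr1 UMIs made up 50.3%, 34.7% and 46.3% in controls 1, 2 and 3, against 16.1%, 38.9% and 12.9% in knockouts 1, 2 and 3. In the plot of UMIs per NK cell, knockout 2 therefore has a larger top class than control 2, though it rests on 7 of 18 cells. Most NK cells of each knockout library still held an Ncr1 UMI. The median NK cell had 4, 3 and 3 Ncr1 UMIs in controls and 1, 2.5 and 1 in knockouts.

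A single NK cell of knockout 3 held 39 Ncr1 UMIs, of 26841 UMIs in all, which was 21.5% of the 181 Ncr1 UMIs of that library's NK cells. The next highest cell there had 10. The highest NK cells of the other libraries had 15, 11 and 24 Ncr1 UMIs in controls 1, 2 and 3, against 7 and 8 in knockouts 1 and 2. Without that cell knockout 3 was at 280 CPM instead of 339, an alternative chosen after its value was seen.

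Hashtags gave most cells of the libraries numbered 3 to a mouse. The 3 mice of control 3 had 639, 824 and 646 CPM of Ncr1 in 50, 46 and 129 NK cells. The 2 mice of knockout 3 had 225 and 543 CPM in 63 and 26 NK cells, with intervals of 180 to 277 and 413 to 703 that do not overlap. The first of these mice held the cell with 39 Ncr1 UMIs and was at 134 CPM without it. NK cells given to no mouse were at 621 CPM in control 3 and 970 CPM in knockout 3, the latter from 12 cells. Mice of 1 library share its preparation and were not tested as replicates.

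**Figure D2:**
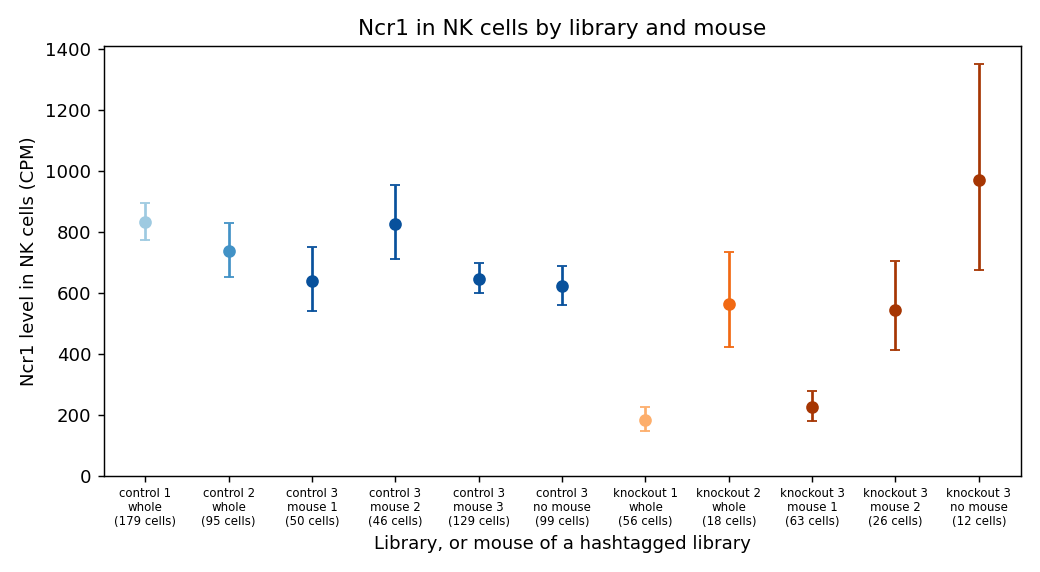
Ncr1 level in NK cells (vertical axis, CPM) for the whole libraries numbered 1 and 2 and, in those numbered 3, for each mouse told apart by hashtags and for cells given to none. Bars are exact 95% intervals on the UMI count. Control points lie between 621 and 832 CPM, while knockout points spread from 183 to 970 CPM.

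Klrb1c, which encodes NK1.1, another receptor that marks NK cells, was at 622, 707 and 608 CPM in controls 1, 2 and 3, against 595, 719 and 708 CPM in knockouts 1, 2 and 3. Ncr1 UMIs per Klrb1c UMI were 1.34, 1.04 and 1.08 in controls and 0.308, 0.783 and 0.479 in knockouts. The groups overlapped in Klrb1c and did not overlap in this ratio, which holds the Ncr1 counts that chose the gene. Ncr1 UMIs per Cd247 UMI were 4.66, 1.93 and 3.35 in controls and 0.835, 2.7 and 1.57 in knockouts. In that ratio the groups overlapped, with knockout 2 above control 2. Klrb1c was itself 1 of the markers that called these cells.

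Across cell types Ncr1 was highest in ILC1 and NK cells. ILC1 were at 938, 787 and 451 CPM in control 1, control 3 and knockout 3, the libraries with at least 10 of them (22, 37 and 12 cells). They were above NK cells in 3 of 3 libraries, by 116 CPM on average (SD of the differences 12.6). In each of these libraries, however, the intervals of the 2 types overlapped. They were 783 to 1114 CPM in ILC1 and 773 to 893 CPM in NK cells of control 1. In control 3 they were 672 to 916 and 623 to 692 CPM, and in knockout 3 283 to 683 and 291 to 392 CPM. With doublets kept the mean difference was 13.2 CPM (SD of the differences 166.3), and NK cells were then higher in 1 of 3 libraries. In the numbered pair that could be compared, ILC1 of knockout 3 were 1.74-fold below those of control 3, with an interval of 1.12 to 2.86. Cells with the common markers but too few of either type were at 671, 397 and 455 CPM in controls 1, 2 and 3, with no Ncr1 UMI in 23 such cells of knockout 3, where 3 counts would be 77.4 CPM.

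**Figure D3:**
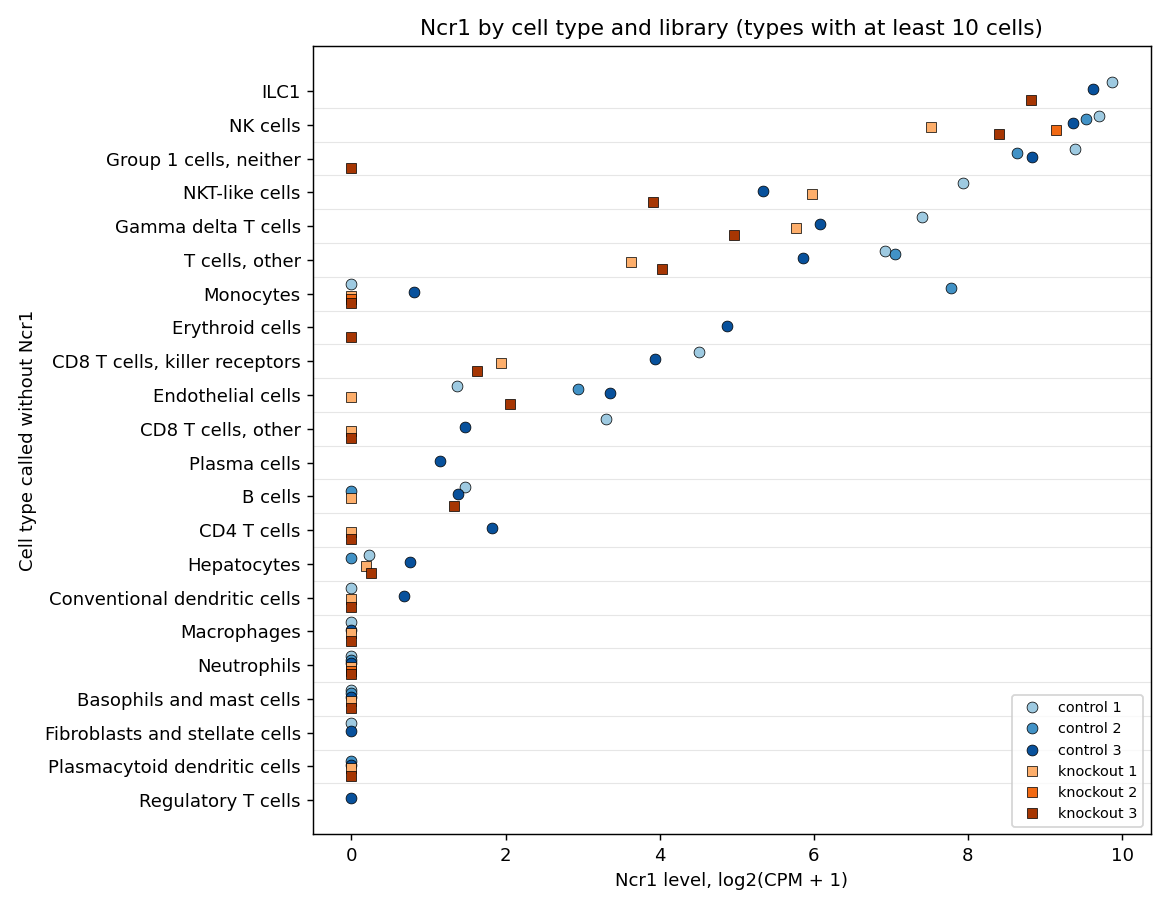
Ncr1 level on a log2(CPM + 1) scale (horizontal axis) in every type with at least 10 cells in a library, ordered by the mean over libraries. Each point is 1 library, circles controls and squares knockouts. ILC1 and NK cells stand at the right, T cells with innate features follow, and 6 types at the bottom are at 0 in all of their libraries.

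Among T cells, Ncr1 was highest in NKT-like and gamma delta cells and in cells of no named subset, and close to 0 in CD4 and regulatory cells. NKT-like cells, called by Zbtb16 and Klrb1c, were at 245 and 39.4 CPM in controls 1 and 3, against 61.9 and 14.1 CPM in knockouts 1 and 3. Gamma delta T cells were at 169 and 66.4 CPM in these controls and at 53.3 and 30.2 CPM in these knockouts. CD8 T cells with at least 4 of the markers common to NK cells and ILC1 were at 21.7 and 14.4 CPM in these controls and at 2.83 and 2.11 CPM in these knockouts. The other CD8 T cells were at 8.88 and 1.77 CPM in these controls, with no Ncr1 UMI in 132 and 177 cells of these knockouts, where a level up to 4.47 and 4.70 CPM (95% bound) cannot be told from 0. T cells of no named subset were at 120.5, 132 and 56.9 CPM in controls 1, 2 and 3, against 11.4 and 15.3 CPM in knockouts 1 and 3. The control 2 value came from 6 UMIs in 1 of 12 cells. CD4 T cells had 3 Ncr1 UMIs in 237 cells of control 3 and none in 67 cells each of knockouts 1 and 3.

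NK cells were above each of the 7 other lymphocyte types compared with them, apart from ILC1, in all libraries that held at least 10 cells of both. The mean difference ran from 260.0 CPM against the cells of neither type (4 libraries) to 492 CPM against CD8 T cells with the common markers (4 libraries), and it was larger still against the other CD8 T cells. With a stricter NK gate the difference from the cells of neither type was 107 CPM, with NK cells higher in 3 of 4 libraries. These differences are descriptions: with 3 to 5 libraries per comparison an exact sign-change test cannot go below p = 0.0625. NKT-like and gamma delta T cells overlapped with each other, and their order differed between libraries.

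Each NK, innate lymphoid and T cell type with 10 or more cells in both libraries of a number had less Ncr1 in the knockout library. This held for 6 of 6 types in the libraries numbered 1 and for 9 of 9 in those numbered 3, and only NK cells could be compared in those numbered 2. In the other CD8 T cells it rested on 2 against 0 UMIs (number 1) and 6 against 0 (number 3), and in CD4 T cells on 3 against 0. Intervals for NKT-like and gamma delta T cells in those numbered 3, 0.828 to 14.7 and 0.730 to 8.88, included no difference. In those numbered 1 they were 1.975 to 8.14 and 1.58 to 6.24 and did not, but few cells held the UMIs. In control 1 and knockout 1 these were 5 of 14 and 3 of 28 NKT-like cells. For gamma delta T cells they were 4 of 18 and 10 of 57. The intervals do not cover the spread between cells. T cells of all subsets together were at 83.0, 107 and 19.5 CPM in controls 1, 2 and 3, against 12.1 and 7.12 CPM in knockouts 1 and 3. The control 2 value came from 11 UMIs in 3 of 24 cells. All T cells together were 6.87-fold lower in knockout 1 than in control 1 (interval 4.88 to 9.76). In knockout 3 they were 2.74-fold lower than in control 3 (interval 1.82 to 4.31). An Ncr1 UMI was held by 25 of 249 T cells in control 1 and 25 of 608 in knockout 1. In control 3 and knockout 3 it was 74 of 2245 and 14 of 655. The mix of subsets differed too, with 97 and 176 T cells of no named subset in control 1 and knockout 1. Knockout 2 had 2 T cells. The groups were compared as a description, as in NK cells.

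T cells that held an Ncr1 UMI carried more of the common NK and ILC1 markers than those that did not. At least 4 of these 10 markers were seen in 96.0%, 100% and 89.2% of 25, 3 and 74 Ncr1-positive T cells in controls 1, 2 and 3, and in 100% of 25 and of 14 in knockouts 1 and 3. Among T cells without an Ncr1 UMI the shares were 45.5%, 52.4% and 39.2% in these controls and 54.5% and 41.5% in these knockouts. The positive cells were also deeper, with medians of 5746 to 9254 UMIs against 3412 to 5608 in the same libraries, and the part of depth or of undetected doublets was not tested.

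Outside NK cells, innate lymphoid cells and T cells, Ncr1 was close to absent. These types together were at 0.214, 10.3 and 1.62 CPM in controls 1, 2 and 3, against 0.0973, 3.04 and 0.305 CPM in knockouts 1, 2 and 3. Hepatocytes held 29532541 of the 32727478 UMIs behind these values in control 1, but 475239 of 1169823 in control 2. These joint levels thus depend on how many hepatocytes a library held. Of the 9731 cells of these types, 62 held an Ncr1 UMI, and 23 of those 62 also had at least 4 of the common NK and ILC1 markers. The value of 218 CPM for monocytes of control 2 came from 10 UMIs in 1 of 11 cells, of 12 Ncr1 UMIs in all these types there. Erythroid cells of control 3 held 19 UMIs in 4 of 86 cells, and endothelial cells 33 UMIs in 11 of 1261 cells over 5 libraries. Hepatocytes held 41 UMIs in 27 of 1957 cells. B cells, which should lack the gene, held a UMI in 0.389% and 0.539% of cells in controls 1 and 3, at median depths of 1888 and 2958 UMIs, and in 0% and 0.25% in knockouts 1 and 3, at 3114.5 and 2294 UMIs. Barcodes of at most 100 UMIs, which hold free RNA rather than cells, had Ncr1 at 30.0 CPM in control 3 (89 UMIs) and 2.88 CPM in knockout 3 (13 UMIs). Macrophages, neutrophils, basophils and mast cells, fibroblasts, plasmacytoid dendritic cells and regulatory T cells had no Ncr1 UMI in any library with at least 10 cells.

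Of the 5163 Ncr1 UMIs in all kept cells, 53.4% lay in NK cells, 6.55% in ILC1, 2.79% in cells of neither type, 8.79% in T cells and 2.40% in types outside these. A further 5.42% lay in cells with markers of several types and 20.6% in cells that no rule called. Of the 255 Ncr1-positive cells that no rule called, 188 had at least 4 common NK and ILC1 markers, and most had a UMI of Cd3d, Cd3e, Cd3g or Trac, which barred them from the NK and ILC1 gates.

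The 3 genes whose levels were most like those of Ncr1, markers left aside, were receptors of the Klr family. NK cells and ILC1 were called partly by other Klr genes, such as Klrb1c and Klrk1, so this ranking is not independent of that family. Likeness was Pearson's r of log2(CPM + 1) over 87 sums of cells from 22 types and 6 libraries, among 14465 genes, and these sums share libraries and depth. Leaving out genes used to call types, the highest were Klrb1a, an activating receptor (r = 0.88), Klrc2 (r = 0.87) and Klrc1 (r = 0.86), which encode NKG2 receptors, and Adamts14, a secreted protease (r = 0.85). Samd3 (r = 0.82), the adaptor gene Clnk (r = 0.80), Ugcg, an enzyme of glycolipid synthesis (r = 0.79), Bspry (r = 0.78), Gm4956 (r = 0.78) and ENSMUSG00000121359 (r = 0.77) completed the first 10. ENSMUSG00000121359 differed from Ncr1 in ILC1, with a mean of 4.84 CPM against 257 CPM in NK cells. Of the marker genes, Klrb1c (r = 0.89) was above all of these.

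Genes that act with Ncr1 were read in the same NK cells, 3 knockout against 3 control libraries, over 6297 genes. By edgeR's quasi-likelihood test 1 of the 6297 genes passed an adjusted p of 0.05, which is 0.0159%, and 137 had an unadjusted p under 0.05. With the replicate number as a block 4 of 6866 passed, which is 0.0583%, 2 of them higher and 2 lower (0.0291% each). None of the measured members of the 4 lists below passed without the block, DESeq2 also called 1 gene in all, and several members (Klrb1c, Klrk1, Klra8, Eomes, Gzma, Prf1 and others) were among the markers that called the cells.

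Neither chain that pairs with NKp46 passed, and for both the groups overlapped. Cd247, the zeta chain, was at 179, 381 and 196 CPM in controls 1, 2 and 3, against 220, 208 and 215 CPM in knockouts 1, 2 and 3, a log2 fold change of -0.17 (SE 0.28). Fcer1g, the gamma chain, was at 2172, 1845 and 1797 CPM in controls and at 2136, 1031 and 2031 CPM in knockouts (log2 fold change -0.13, SE 0.26). Tyrobp, the adaptor of other NK receptors, had a log2 fold change of -0.02 (SE 0.20), and the kinases Syk and Zap70 had -0.17 (SE 0.26) and 0.14 (SE 0.26). Of 17 adaptors and kinases 15 were measured, 10 with a negative and 5 with a positive log2 fold change, with a median of -0.13 against -0.0014 over all genes. Lcp2, which encodes the scaffold SLP-76, and Plcg2, a phospholipase, had the smallest p of them, with log2 fold changes of -0.43 (SE 0.23) and -0.36 (SE 0.26).

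**Figure D4:**
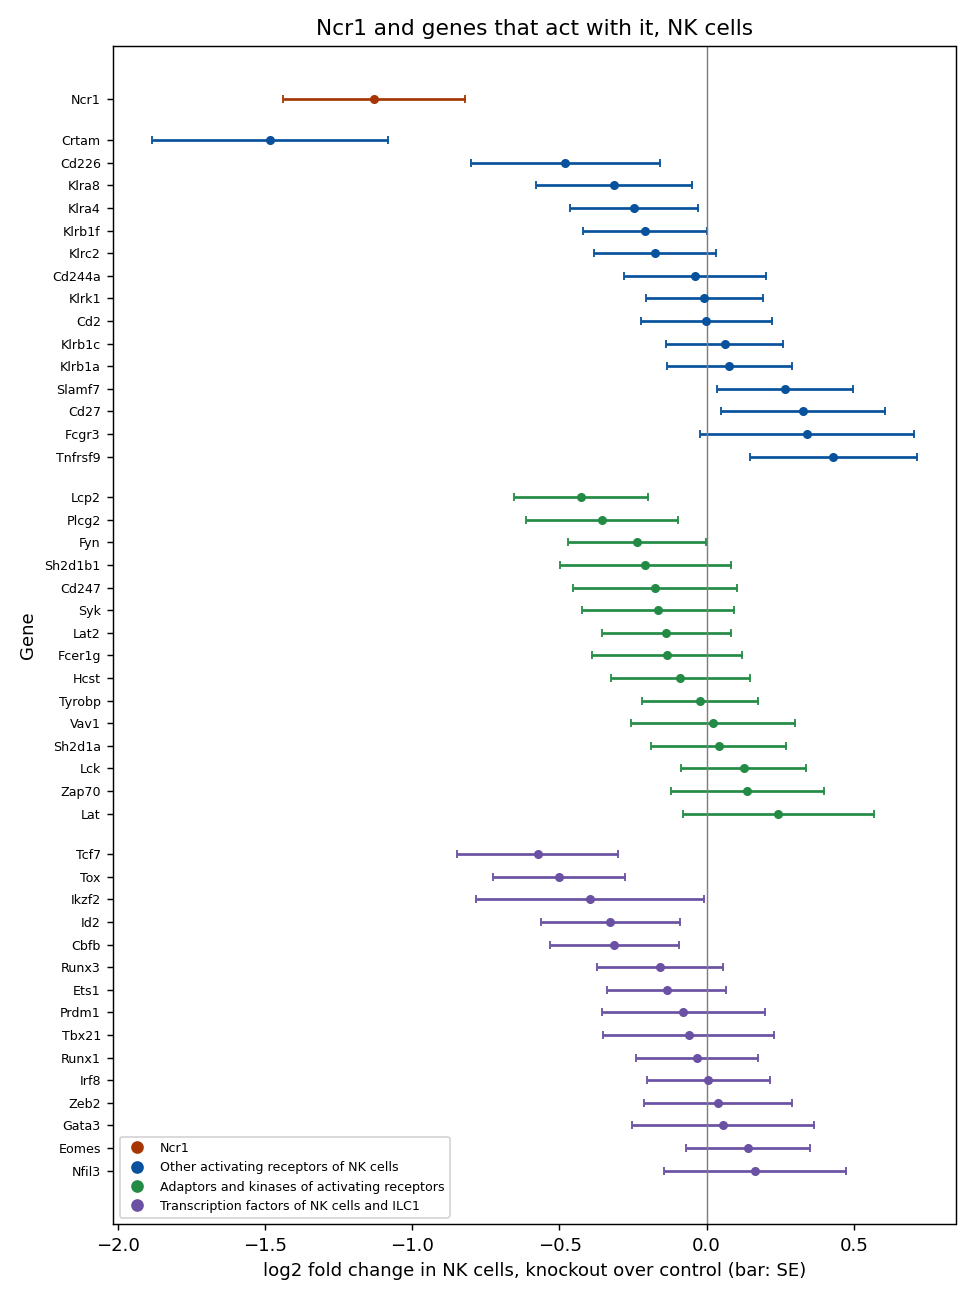
Log2 fold change in NK cells, knockout over control (horizontal axis), with its standard error as bars, for Ncr1 and for measured members of 3 lists. Ncr1 at -1.13 and Crtam at -1.48 lie furthest to the left, and the chains that pair with NKp46 lie near 0.

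Other activating receptors were measured for 15 of 16 members, 9 with a negative and 6 with a positive log2 fold change and a median of -0.01. In 3 of the 15 all knockout libraries lay below all controls, and in 0 above, against 4.32% and 3.84% of all genes. Crtam, an adhesion receptor of activated NK and T cells, had the smallest p. It was at 36.2, 36.5 and 36.3 CPM in controls 1, 2 and 3, against 6.40, 20.8 and 16.9 CPM in knockouts 1, 2 and 3. Its log2 fold change of -1.48 (SE 0.40) did not pass (edgeR adjusted p = 1), and it rests on 3, 2 and 9 UMIs in the knockouts. Tnfrsf9, the costimulatory receptor 4-1BB, came next at 0.43 (SE 0.28). Klrk1, which encodes NKG2D, was at 627, 666 and 725 CPM in controls and at 618, 688 and 702 CPM in knockouts.

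Of 17 transcription factor genes of NK cells and ILC1, 15 were measured, 10 with a negative and 5 with a positive log2 fold change and a median of -0.08. Runx3 was at 278, 334 and 339.5 CPM in controls and at 318, 281 and 251 CPM in knockouts, a log2 fold change of -0.16 (SE 0.21). Runx1 and Cbfb, the partner of Runx proteins, had -0.03 (SE 0.21) and -0.31 (SE 0.22). Eomes and Tbx21, which encode the T-box factors of NK cells, had 0.14 (SE 0.21) and -0.06 (SE 0.29). Tox and Tcf7, factors of NK cell development, had the smallest p of the list at -0.50 (SE 0.23) and -0.57 (SE 0.27), and neither passed.

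Granule genes were measured for 8 of 10 members, 6 with a positive log2 fold change, and the median was 0.07. Gzmc, which encodes a granzyme, was at 98.6, 7.83 and 189 CPM in controls and at 8.53, 10.4 and 43.1 CPM in knockouts, so that the groups overlapped. Its log2 fold change was -2.14 (SE 0.76) without the block and did not pass (edgeR adjusted p = 1), and -2.42 (SE 0.32) with it, where it passed (edgeR adjusted p = 0.0097). It was -0.42 when the NK gate was loosened, -1.28 without control 3 and -3.63 without knockout 3. Prf1, perforin, was at 667, 642 and 649.8 CPM in controls and at 812, 1052 and 986 CPM in knockouts (log2 fold change 0.53, SE 0.20), and did not pass. The T cell receptor complex genes and hepatocyte genes measured in these NK cells did not pass either. Trbc1 and Trbc2 were the measured members of 6 T cell receptor complex genes, at -0.19 (SE 0.22) and 0.46 (SE 0.27), and 6 of 10 hepatocyte genes had a median of -0.68, led by Fgb at -0.98 (SE 0.73) and Alb at -1.03 (SE 0.79).

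The gene that passed without the block was Cdkn1a, which encodes the cell cycle inhibitor p21. It was at 9.86, 7.83 and 13.7 CPM in controls 1, 2 and 3, against 98.1, 41.7 and 56.2 CPM in knockouts 1, 2 and 3, higher in 3 of 3 knockout libraries. Its log2 fold change was 2.60 (SE 0.36, edgeR adjusted p = 0.037), from 9, 3 and 29 UMIs in controls and 46, 4 and 30 in knockouts. It no longer passed when any 1 of controls 1, 2 and 3 or knockouts 1 and 3 was left out (edgeR adjusted p from 0.1025 to 0.619). With the block Serpine2, a protease inhibitor, also rose (3.20, SE 0.40, edgeR adjusted p = 0.0097) and Dscam, an adhesion molecule, fell (-2.29, SE 0.34, edgeR adjusted p = 0.0213).

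NK cells with and without an Ncr1 UMI were then compared within libraries, after drawing 1000 UMIs from each cell so that depth was equal. A cell was Ncr1-positive if an Ncr1 UMI was among the 1000 drawn. Control 1, control 2, control 3 and knockout 3 had at least 10 NK cells in both states. They had 95, 53, 156 and 29 Ncr1-positive and 82, 40, 168 and 71 Ncr1-negative cells. Before the draw only 21, 16, 35 and 41 of their NK cells held no Ncr1 UMI. Many negative cells had thus held Ncr1 UMIs that were not drawn. The comparison therefore does not set cells with Ncr1 against cells lacking it. Apart from Ncr1 itself, 0 of 1857 genes passed edgeR's quasi-likelihood test, which is 0%. An unadjusted p under 0.05 was reached by 84 genes, and DESeq2 called 0, with 9 at an unadjusted p under 0.05.

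This count depended on which UMIs were drawn. The first draw made, from a single stream of random numbers, called Ccl4. The draw reported above seeds each cell on its own and called none, and 9 more draws were made after this was seen. Over these 11 draws 0 to 9 genes passed, and 3 draws gave none. Ccl4, which encodes a chemokine that draws in immune cells, passed most often, in 6 of 11 draws. Its log2 fold change in Ncr1-positive cells was negative in 11 of 11 draws, from -1.03 to -0.23 with a median of -0.78, and it was singled out after its values were seen. The histone genes H1f5, H2ac24 and H2ac8 passed in 3, 2 and 2 draws and were negative in 11 of 11. Every other gene that passed did so in 1 draw. Ccl5, Gzma and Ly6c2 among them were positive in 11 of 11. These genes too were picked after their values were seen. The draws use the same cells and are not replicates, and knockout 1 entered only the draws in which at least 10 of its NK cells kept an Ncr1 UMI.

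None of the list members passed in the draw reported as main, and Gzma passed in 1 of the 11 draws. Of the adaptors and kinases 11 were measured, 8 with a positive log2 fold change and a median of 0.16, against -0.0040 over all genes. Tyrobp, at 0.31 (SE 0.11), was positive in 11 of 11 draws, while Hcst, the adaptor of NKG2D, at 0.39 (SE 0.18), was positive in 8. Of the other activating receptors 11 were measured, 7 positive, with Klrc2 at 0.58 (SE 0.27) and Klrb1c at 0.31 (SE 0.16), both positive in all 11 draws. The transcription factors had 6 of 10 positive, with Id2 at 0.36 (SE 0.16) and Tbx21 at -0.37 (SE 0.24), the latter negative in 6 of 11 draws. Granule genes had 6 of 7 positive, with Nkg7 at 0.23 (SE 0.10) and Gzma at 0.18 (SE 0.10). The T cell receptor genes Trbc1 at 0.30 (SE 0.22) and Trbc2 at -0.12 (SE 0.21) took both signs over the draws. So did the hepatocyte gene Alb, at -0.13 (SE 0.34).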

How the data were processed

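Values deposited by the authors are raw UMI counts, a gene by barcode matrix for each droplet 3′ library per the labels' protocols. Per the file headers they were made with Cell Ranger 7.0.1 (libraries numbered 1 and 2) and 9.0.1 (numbered 3), though 9.0.1 and GRCm39 are given in the submitters' processing notes. Matrices numbered 1 and 2 hold called cells and those numbered 3 all barcodes.

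Cells needed 500 UMIs and 300 genes or more, with mitochondrial UMIs at 20% or less. In libraries numbered 3 they also differed from barcodes of at most 100 UMIs (10000 simulations, false discovery rate 0.001). The highest Scrublet scores were removed at 0.8% per 1000 cells, so doublets remain. Hashtags were assigned at a posterior of 0.9 (3 mice) or by the gap between 2 modes (2 mice). Gate thresholds were set after seeing marker counts but not Ncr1 counts, with T cells needing 3 of 8 markers and 2 of 4 complex genes, and other types 3 markers (hepatocytes 8, erythroid cells 4). The member and the gene lists were chosen with earlier results of these data known.

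UMIs were summed per library and type (at least 10 cells), and tested with edgeR 4.0.16 (R 4.3.3, TMM, filterByExpr, Benjamini-Hochberg, threshold 0.05), with DESeq2 1.42.0 as an alternative. Where the labels do not name animals, p-values measure only the spread between libraries. Intervals are 95% exact (Poisson for CPM, Clopper-Pearson for shares, conditional binomial for ratios), and a count of 0 was read against 3 counts. Same-numbered libraries deviated together in NK cells (r = 0.329, 0.276 and 0.177 over 3621 genes). Controls and knockouts of unlike number ran from r = -0.316 to 0.119. Numbers were taken to pair libraries in the ratios. The labels do not say what a shared number means, so the main fit of knockout against control has no block. The blocked fit is given where it changes a call. Named genes were Nr4a1, the 10 most like Ncr1 (at least 200 UMIs), genes that passed (up to 10 per direction), and, in every list, the 2 members of smallest p, others being named to show the pathway. Both fits were tested on simulated data with 4-fold changes. Alternatives left out each library, moved the gates, depth, filter, scaling, tool and draw, or kept doublets. Promoter windows came from RefSeq.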

Additional observations from a re-analysis of the deposited data

How the results depend on the processing

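The fitted log2 fold change of Ncr1 in NK cells stayed negative in 14 alternatives, from -1.49 (both libraries numbered 2 left out) to -0.79 (without knockout 1), and was -1.21 with the replicate block. The log2 ratio of mean CPM was -1.04, and from -1.51 to -0.72 over 13 alternatives. The mean difference between NK cells and each of 8 other types kept its sign in 11 alternatives. ILC1 had the higher mean by 13.2 to 142 CPM, the lower end with doublets kept, where NK cells were higher in 1 of 3 libraries.

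The count of genes changed in NK cells was 1, but 4 with the replicate block, 16 with no filter on low counts, 0 with the looser gate, 0 with doublets kept and 0 to 2 with 1 library left out. The block changed the calls of Gzmc, Serpine2 and Dscam and of no other gene named here. Gzmc also passed with no filter (edgeR adjusted p = 1.61e-07). Cdkn1a lost its call with the looser gate (edgeR adjusted p = 1), with doublets kept (edgeR adjusted p = 0.0577) and without the libraries numbered 2 (edgeR adjusted p = 0.0709). Without 1 library Alb ran from -2.70 to 0.61, the latter without control 3.

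Between Ncr1 states the count was 0, but 13 with cells thinned to 2000 UMIs and 0 to 1 with 1 library left out. Over the draws added after seeing the data it was 9, 3, 0, 0, 1, 1, 4, 4 and 2 in draws 2 to 10 and 1 in a draw with a single stream of random numbers. With control libraries only, also added later, it was 0. Alb turned to 0.16 with the stricter gate and 0.27 at 2000 UMIs, ran from -0.104 to 0.0376 without 1 library, with 0.0269 for control libraries only, and Trbc2 turned to 0.35 at 2000 UMIs. The causes were not tested. Precision is limited in knockout 2, with 18 NK cells, and in ILC1, with 12 to 37 cells a library.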
